A study of Mus musculus with 6 samples.

Results

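The immunoglobulin heavy chain variable genes, whose mouse symbols start with Ighv, were described in antigen-specific germinal center (GC) B cells of the spleen. They were all genes of the deposited count table with such a symbol, 120 of 27179 genes, and no measured value was used to choose them. NP-binding IgG1+ GC B cells, gated as B220+ and CD38- and negative for CD138, Gr1, IgM and IgD, had been sorted from C57BL/6 mice that were WT or deficient in the IL-21 receptor (Il21r-/-, labelled Il21r KO) on days 7, 10 and 14 after intraperitoneal immunization with NP, a nitrophenyl hapten, coupled to the carrier protein KLH in alum. RNA-seq was available from 1 library per genotype and day, 6 in all, so 3 libraries stood for each genotype. All groups shared the antigen, the adjuvant and the sort gate. By the study's methods the mice were irradiated Ly5.1 hosts reconstituted with WT or Il21r-/- bone marrow, so that only the cells grown from the donor marrow lacked the receptor. The labels describe each sample as an independent mouse. The methods describe several mice per genotype from more than 1 independent immunization, and a supplementary legend gives 3 mice of each genotype for the day 7 sort. These sources differ, so the number of mice behind a library is not known. Which immunization a library came from is not given either. P-values measure the spread between these libraries only. Mice were matched for age and sex by the study's reporting summary, which gives 1 broad age range for all of its experiments.

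A heavy chain variable region is assembled in each developing B cell by joining 1 V, 1 D and 1 J segment, and every daughter of that cell transcribes the same joined V segment. The share of Ighv reads that falls on a gene therefore describes which V segments the sorted cells used, weighted by the number of cells and by the heavy chain mRNA in each. In these bulk libraries fewer cells and less RNA per cell cannot be told apart. In C57BL/6 mice the response to NP is known for a heavy chain built from the V186.2 segment, which is Ighv1-72, joined to the D segment DFL16.1, which is Ighd1-1, and JH2, and paired with a lambda1 light chain. In GCs these regions are then mutated and selected for binding.

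The 4 V segments below carry the result: Ighv1-72 was the leading gene in every library, Ighv1-62-3 and Ighv1-53 were the leading genes closest to it in sequence, and Ighv14-3 was the second gene in rank, with the clearest change over days. Each is the germline sequence of the GENCODE M21 transcript (GRCm38), 294 bases on the minus strand of chromosome 12 from the first base of the mature V region to the end of the V exon, written 5′ to 3′. Capitals mark bases that differ from Ighv1-72.
Ighv1-72 (chr12:115757984-115758277): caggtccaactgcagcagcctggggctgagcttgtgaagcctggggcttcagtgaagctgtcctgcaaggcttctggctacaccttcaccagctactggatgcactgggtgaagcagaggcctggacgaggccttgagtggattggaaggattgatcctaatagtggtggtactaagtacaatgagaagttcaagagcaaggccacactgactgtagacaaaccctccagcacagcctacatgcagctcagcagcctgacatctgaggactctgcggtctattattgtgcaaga
Ighv1-62-3 (chr12:115460999-115461292): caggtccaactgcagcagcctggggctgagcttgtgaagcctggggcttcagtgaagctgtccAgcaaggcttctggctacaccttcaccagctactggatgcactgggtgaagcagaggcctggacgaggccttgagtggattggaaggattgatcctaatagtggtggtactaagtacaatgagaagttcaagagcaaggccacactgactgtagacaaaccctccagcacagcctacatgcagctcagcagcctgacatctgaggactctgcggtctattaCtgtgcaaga
Ighv1-53 (chr12:115158403-115158696): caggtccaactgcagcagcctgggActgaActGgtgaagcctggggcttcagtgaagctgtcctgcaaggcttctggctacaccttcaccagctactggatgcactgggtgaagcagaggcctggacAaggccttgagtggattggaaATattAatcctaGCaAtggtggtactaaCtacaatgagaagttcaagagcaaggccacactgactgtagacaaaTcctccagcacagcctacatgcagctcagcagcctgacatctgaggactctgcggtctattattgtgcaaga
Ighv14-3 (chr12:114059845-114060138): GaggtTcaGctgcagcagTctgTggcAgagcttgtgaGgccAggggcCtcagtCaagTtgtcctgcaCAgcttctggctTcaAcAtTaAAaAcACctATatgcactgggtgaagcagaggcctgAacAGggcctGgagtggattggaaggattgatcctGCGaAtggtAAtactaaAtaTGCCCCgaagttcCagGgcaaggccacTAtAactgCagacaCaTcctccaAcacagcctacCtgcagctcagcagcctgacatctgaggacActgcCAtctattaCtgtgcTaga

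Ighv1-62-3 differed from Ighv1-72 at 2 of these 294 bases, Ighv1-53 at 12 and Ighv14-3 at 56. Identity to Ighv1-72, with its V exon of 305 bases, was taken over the aligned bases of the V exons, gaps left out. Fewer bases aligned for some genes, only 134 for Ighv1-12. The other 59 genes of the Ighv1 family were 78.6 to 99.0% identical with a median of 86.6%. Of these, 3 reached 95%, namely Ighv1-62-3, Ighv1-53 and Ighv1-64. The 60 genes of other families were 50.3 to 81.0% identical with a median of 59.3%. Of the 206 windows of 100 bases, the length of a read, in the V exon of Ighv1-72, 126 occurred without a mismatch in another annotated Ighv transcript, and all 206 occurred with at most 3 mismatches. How reads that fit several genes were counted is not given in the sources used here, and GC B cells carry mutated V regions, so the counts of Ighv1-72, Ighv1-62-3 and Ighv1-53 cannot be told apart with certainty and the values of all of them are uncertain in that respect. Ighv14-3 had no window without a mismatch elsewhere. Of its 206 windows, however, 76 occurred elsewhere with at most 3 mismatches and 181 with at most 5. Mutated reads of Ighv14-3 may thus fit other genes, and its counts are uncertain in that respect too.

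**Figure D1:**
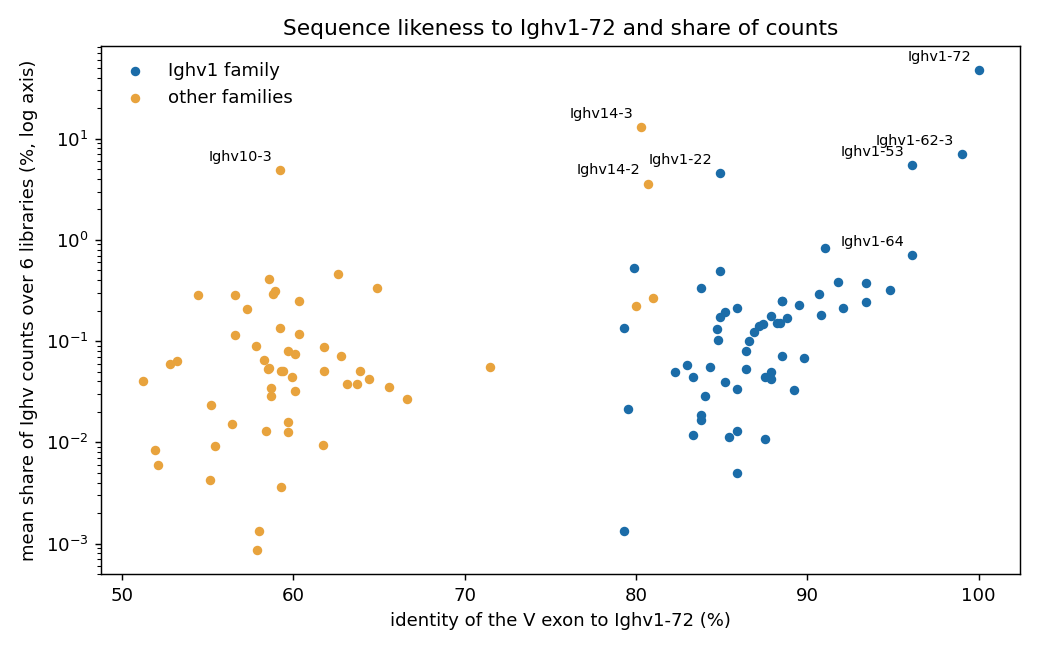
Identity of the V exon to Ighv1-72 in percent of aligned bases, gaps left out (x axis), against the mean share of Ighv counts over the 6 libraries in percent on a log axis (y axis), 1 point per gene for the 112 genes with any count. Ighv1-72 sits at a mean of 47.7% and its closest relative Ighv1-62-3 at 7.01%, while Ighv14-3 reached 13.0% at 80.3% identity.

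The 120 genes lie on chromosome 12 between 113578504 and 116009954 (GRCm38), all on the minus strand. GENCODE annotates 111 as IG_V genes and 9 as IG_V pseudogenes. The RefSeq table of the same build lists 183 Ighv genes, of which the 63 others are not analysed here. Counts were found for 112 of the 120 genes, 83 had a count in every library and 34 had at least 10 counts in every library. Another 8 genes had no count in any library, which allows a share of up to 0.0155 to 0.0295% of the Ighv counts of a library. Annotated lengths ran from 282 to 457 bases. For 95 genes the length equalled the genomic span, and the other 25, with lengths of 309 to 363 bases, had an intron.

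The libraries held 21353438 to 27435124 counts on genes. Il21r, which encodes the deleted receptor, was at 346, 259 and 247 CPM (counts scaled to a common library size) in WT and at 106, 125 and 112 CPM in Il21r-/- on days 7, 10 and 14, and the lowest WT library was above the highest Il21r-/- library (log2 ratio 1.30, SE 0.15, adjusted p = 0.0019, edgeR quasi-likelihood test). The counts of a whole gene do not show which exons were deleted. All 7 markers of GC B cells, such as Bcl6 and S1pr2, were expressed, with a summed level of 2100 to 3231 CPM in WT and 1860 to 2775 CPM in Il21r-/-. Markers of non-GC B cells summed to 287.9 to 684 CPM in WT and 646.4 to 1043 CPM in Il21r-/-. Of the 5, 3 (Ccr7, Klf2, Fcer2a) were higher in Il21r-/-, as were 3.91% of all genes. Ighd, the constant region of naive B cells, stayed at 0.983 to 1.71 CPM in all libraries. Of 7 plasma cell markers, 6 were tested, and Prdm1 and Slpi were higher in WT, as were 1.32% of all genes. Prdm1 was low in all libraries, at 0.251 to 1.89 CPM. Summed levels were 2765 to 2939 CPM in WT and 2901 to 3509 CPM in Il21r-/- and mostly Jchain, while Sdc1 stayed at 0.344 to 0.881 CPM. T cell markers summed to 0.89 to 2.14 CPM, myeloid markers to 1.91 to 6.60 CPM and erythroid markers to 4.21 to 31.2 CPM. The part of these cells in the Ighv values was not tested.

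Ighv counts were a small part of each library, and per kilobase they stood somewhat below those of Ighg1. WT libraries held 19377, 14881 and 10188 Ighv counts on days 7, 10 and 14, and Il21r-/- libraries 16079, 18597 and 12576. They made up 0.0706, 0.0625 and 0.0477% of all counts in WT on days 7, 10 and 14, and 0.0672, 0.0725 and 0.0480% in Il21r-/-. Both day 14 libraries were the lowest. The genotypes overlapped, with means of 0.0603% ± 0.0116 (SD, n = 3) in WT and 0.0625% ± 0.0129 (SD, n = 3) in Il21r-/- (two-sided exact permutation test, p = 0.7, where 0.1 is the smallest p that 3 against 3 libraries allow). The 3 libraries of a genotype are its 3 days, so the SD includes any change with day. The permutation test does not use the pairing of libraries by day. Against Ighg1, the constant region of the sorted isotype, 19.6, 18.5 and 17.8 Ighv counts were found per 100 Ighg1 counts in WT and 19.2, 18.5 and 17.0 in Il21r-/-. Per kilobase of annotated exon, Ighv reads stood at 0.93, 0.88 and 0.85 times the Ighg1 level in WT and at 0.91, 0.88 and 0.82 times in Il21r-/-. This ratio was lower on day 14 than on day 7 in both genotypes. It leaves out the other constant regions, and the handling of reads that fit several genes also enters it.

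Ighv1-72 supplied 44.1 to 49.8% of the Ighv counts, more than any other gene in all 6 libraries. Its share was 48.5% on day 7, 46.1% on day 10 and 44.1% on day 14 in WT, from 9391, 6863 and 4494 counts. In Il21r-/- it was 49.1, 48.5 and 49.8%, from 7893, 9014 and 6259 counts. The 95% Wilson intervals, which cover counting error only since these reads carry no molecular identifiers, were 47.8 to 49.2%, 45.3 to 46.9% and 43.1 to 45.1% in WT and 48.3 to 49.9%, 47.7 to 49.2% and 48.9 to 50.6% in Il21r-/-. Every Il21r-/- library was above every WT library, although the WT library of day 7 and the Il21r-/- libraries of days 7 and 10 lay within each other's intervals. Shares did not overlap between genotypes for 11 of the 120 genes (9.17%), Ighv1-72 among them, with 7 higher in WT and 4 in Il21r-/-. Of the 120 genes, 8 had no count and could not differ. In CPM, a different scale, the genotypes did not overlap for 18.3% of all 11136 genes tested, so such an order of libraries was not particular to Ighv genes. In Ighv1-72 share the genotypes were closest on day 7 and farthest apart on day 14. The mean share was 46.2% ± 2.18 (SD, n = 3) in WT and 49.1% ± 0.65 (SD, n = 3) in Il21r-/-, a difference of -2.88 percentage points (two-sided exact permutation test, p = 0.1, the smallest this design allows). Without the WT library of day 14 the difference was -1.82 points. The SD again includes the change over days, and the test does not use the pairing by day. The order of the libraries was not kept on every scale. The groups overlapped when the share was taken among the genes with at least 10 counts in every library (p = 0.3), per gene length (p = 0.2), within the Ighv1 family (p = 0.5) or when Ighv1-62-3 was counted with Ighv1-72 (p = 0.2), each by the same exact permutation test. Per 100 Ighg1 counts, Ighv1-72 stood at 9.50, 8.54 and 7.86 in WT and at 9.43, 8.95 and 8.47 in Il21r-/-, and here the genotypes overlapped too.

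**Figure D2:**
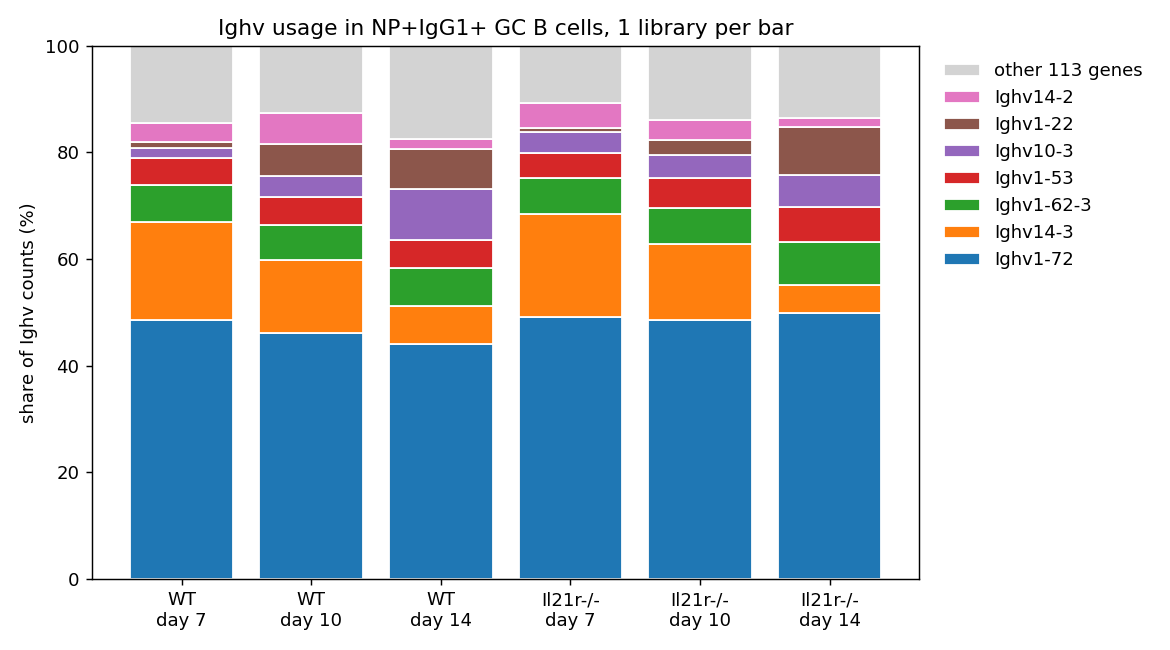
Share of Ighv counts in percent (y axis) taken by the 7 genes that reached 5% in any library and by the other 113 genes together, 1 bar per library. Ighv1-72 fills 44.1 to 49.8% of every bar, and Ighv14-3 shrinks from 18.6 to 6.98% in WT and from 19.4 to 5.30% in Il21r-/- between days 7 and 14.

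The leading genes closest to Ighv1-72 in sequence held similar shares in all libraries. Ighv1-62-3 held 6.87, 6.62 and 7.20% in WT on days 7, 10 and 14 and 6.63, 6.70 and 8.07% in Il21r-/-. Ighv1-53 held 5.08, 5.20 and 5.30% in WT and 4.85, 5.63 and 6.59% in Il21r-/-. Both were highest in the Il21r-/- library of day 14, and the genotypes overlapped for both. Against Ighv1-72 itself the ratios moved little, with 13.5 to 16.3 counts of Ighv1-62-3 and 9.87 to 13.2 counts of Ighv1-53 per 100 counts of Ighv1-72. For both genes the ratio was higher in each day 14 library than in any other library. Ighv1-64, the third gene above 95% identity, held only 0.477 to 0.946%. With Ighv1-72, Ighv1-62-3 and Ighv1-53 counted together, the share was 60.4, 57.9 and 56.6% in WT and 60.6, 60.8 and 64.4% in Il21r-/- without overlap of the genotypes (two-sided exact permutation test, p = 0.1). The lack of overlap rested on the day 7 libraries, at 60.42% in WT and 60.56% in Il21r-/-. Neither this sum nor that of Ighv1-72 with Ighv1-62-3 alone was planned.

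Ighv14-3, a V segment of another family, was the second gene and had a far smaller share on day 14 than on day 7. It held 18.6, 13.6 and 6.98% of Ighv counts in WT on days 7, 10 and 14 and 19.4, 14.3 and 5.30% in Il21r-/-. The order of the days was the same in both genotypes, and the 2 libraries of each day were closer to each other than to any library of another day. Per 100 counts of Ighv1-72 there were 38.3 of Ighv14-3 on day 7 and 15.8 on day 14 in WT, and 39.5 and 10.6 in Il21r-/-. Ighv14-2, of the same family, held 3.57, 5.81 and 1.96% in WT and 4.81, 3.76 and 1.71% in Il21r-/-. It was lowest on day 14 in both genotypes but peaked on day 10 in WT and on day 7 in Il21r-/-. Of the 206 windows of Ighv14-2, 126 occurred in another Ighv transcript with at most 3 mismatches, so its counts are uncertain too. The 4 genes of the Ighv14 family together held 22.5, 20.1 and 9.53% in WT and 24.6, 18.5 and 7.42% in Il21r-/-.

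Ighv1-22 and Ighv10-3 held larger shares on later days, although neither passed the test over days given further on. Ighv1-22 held 1.24, 6.05 and 7.59% in WT and 0.703, 2.74 and 8.98% in Il21r-/- on days 7, 10 and 14. Its highest and lowest libraries, both Il21r-/-, were 12.8-fold apart, the widest range of the 7 leading genes. Ighv10-3 held 1.81, 3.94 and 9.48% in WT and 3.85, 4.50 and 6.05% in Il21r-/-. For both genes each later library of a genotype was above the earlier one. Genotypes overlapped for both: Ighv10-3 was higher in Il21r-/- on days 7 and 10 and higher in WT on day 14, and Ighv1-22 the other way round. Ighv1-22 is 84.9% identical to Ighv1-72 and Ighv10-3 is 59.2% identical, so neither is a close relative of Ighv1-72. Both resemble other Ighv genes, however. With at most 3 mismatches, 188 of 206 windows of Ighv1-22 and 120 of 214 of Ighv10-3 occurred in another Ighv transcript. Mutated reads of both may thus fit other genes, and their counts are uncertain in that respect.

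**Figure D3:**
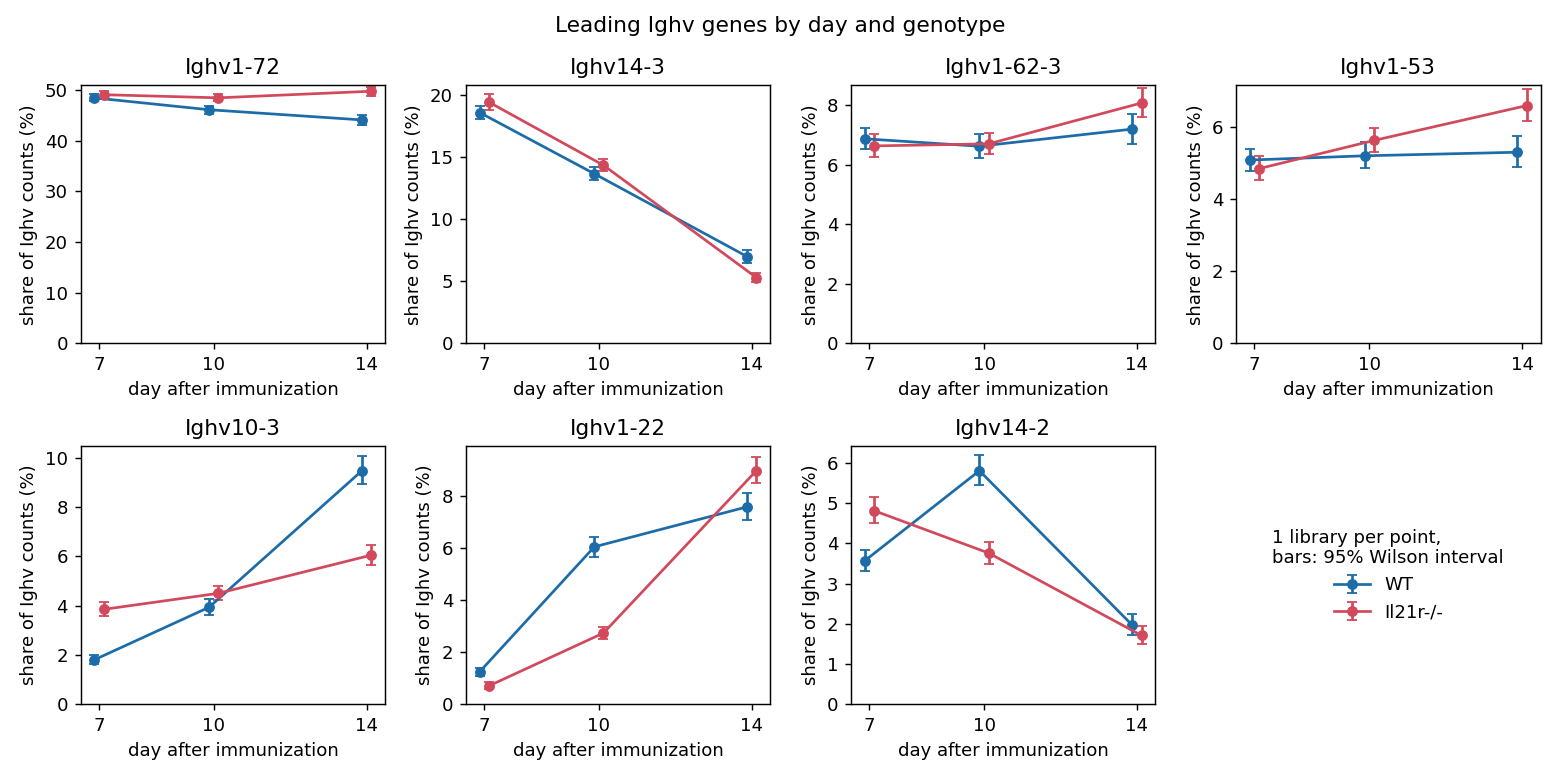
Share of Ighv counts in percent (y axis) of the 7 leading genes against day after immunization (x axis), with 1 library per point and 95% Wilson intervals as bars. Both genotypes fall for Ighv14-3, on day 14 to 6.98% in WT and 5.30% in Il21r-/-, and are higher on later days for Ighv1-22 and Ighv10-3, while the Ighv1-72 lines part from 48.5 and 49.1% on day 7 to 44.1 and 49.8% on day 14.

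On a scale that allows for the annotated lengths the order of the leading genes was nearly the same. Ighv1-72 was first with a mean of 50.4% of length-adjusted Ighv counts over the 6 libraries, followed by Ighv14-3 with 11.6%, Ighv1-62-3 with 6.21%, Ighv1-53 with 5.47%, Ighv1-22 with 4.79%, Ighv10-3 with 4.27% and Ighv14-2 with 3.30%. The order of Ighv1-22 and Ighv10-3 was exchanged with respect to raw shares, of which the means were 4.55 and 4.94%. Ranges over the libraries overlapped between all neighbours from Ighv14-3 downwards and did not overlap between Ighv1-72 and Ighv14-3.

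The Ighv1 family as a whole, with 60 genes, held 66.6 to 81.9% of Ighv counts. Its share was higher on day 14 (75.3% in WT and 81.9% in Il21r-/-) than on day 7 (70.8 and 66.6%). The Ighv10 family, with 2 genes, held 2.09 to 10.1%. None of the other 13 families reached 2% in any library, and the 10 genes of Ighv5 led them with 0.78 to 1.63%.

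The 7 leading genes together supplied 85.6, 87.4 and 82.6% of Ighv counts in WT and 89.3, 86.1 and 86.5% in Il21r-/-. The other 113 genes shared the rest, and none of them exceeded 2.04% in any library. Of these, 43 had a mean share of 0.1% or more and 70 less. Ighv1-12, Ighv1-64, Ighv1-67, Ighv1-18 and Ighv5-17 completed the 12 genes with the highest mean shares. Ighv1-12 reached 2.04% (379 counts) in the Il21r-/- library of day 10 and held 0.286 to 1.11% elsewhere. Ighv1-67 reached 1.42% (211 counts) in the WT library of day 10 and held 0.162 to 0.575% elsewhere. Ighv1-18 was lowest on day 7 in both genotypes, with 0.310% in WT and 0.124% in Il21r-/-, and highest on day 14, with 0.824 and 0.835%. Ighv5-17 was highest in Il21r-/- on day 7 with 0.808% and lowest in Il21r-/- on day 14 with 0.191%.

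Some minor genes stood out in 1 library only. Of the 113 genes, 55 reached 20 counts in some library, and 10 of these had a share in their highest library at least 2 times that of the next. They were spread over 5 of the 6 libraries, 4 of them in WT on day 7, 2 in each day 14 library and 1 in each day 10 library. A gene entered this set by the count in its own highest library. The cutoff of 20 counts is easier to reach in WT on day 7, with 19377 Ighv counts, than in WT on day 14, with 10188. The number per library therefore depends on depth and is a description only. The 10 genes were named after their values were seen. Ighv1-81 had the largest ratio, with 0.583% (113 counts) in WT on day 7 against at most 0.0982% elsewhere. Ighv3-8 followed with 0.412% (42 counts) in WT on day 14 against at most 0.0914%, and Ighv1-80 with 0.139% (27 counts) in WT on day 7 against at most 0.0398%. A library is 1 sample, so these peaks have no replicate.

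**Figure D4:**
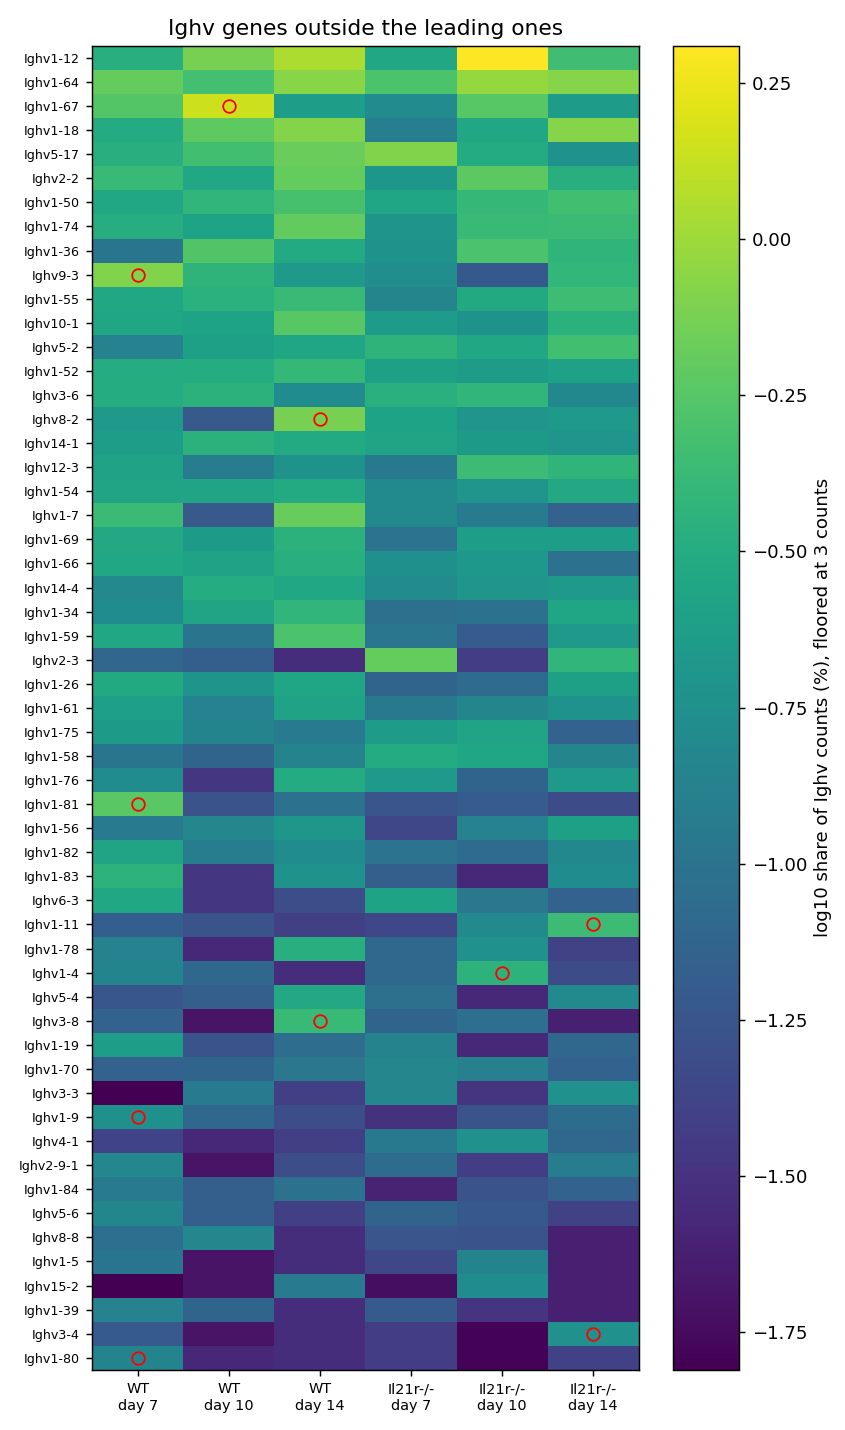
Shares of Ighv counts in percent, as log10 (color, floored at 3 counts), of the 55 genes outside the leading ones that reached 20 counts in a library (rows), in the 6 libraries (columns). Red circles mark the 10 genes whose highest library was at least 2 times the next, such as Ighv1-81 at 0.583% in WT on day 7.

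The breadth of usage was narrow in both genotypes. The effective number of Ighv genes, the inverse Simpson index that gives the number of equally used genes with the same concentration, was 3.59, 4.04 and 4.48 in WT and 3.45, 3.73 and 3.65 in Il21r-/- on days 7, 10 and 14. WT was above Il21r-/- on each day, but the groups overlapped, at 4.04 ± 0.45 (SD, n = 3) and 3.61 ± 0.14 (SD, n = 3) (two-sided exact permutation test, p = 0.3). Here too the SD includes the change over days. The test does not use the pairing by day, and its smallest possible p is 0.1, so it could not call a difference. The difference of 0.42 became 0.20 without the WT library of day 14 and 0.65 without that of day 7. Between 97 and 109 Ighv genes had a count in a library. Thinned to the 10188 Ighv counts of the shallowest library, the expected number was 104, 96.7 and 98.0 in WT and 96.8, 93.6 and 101 in Il21r-/-. Within the 113 minor genes the effective number was 47.1, 29.5 and 37.5 in WT and 39.9, 24.0 and 40.3 in Il21r-/-, and it was lowest on day 10 in both genotypes.

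The repertoires of both genotypes on the same day were much alike. The overlap of libraries, summed over genes as the smaller of their shares, was 92.9% between the genotypes on day 7, 91.0% on day 10 and 88.2% on day 14. The 6 pairs of the same genotype on different days overlapped by 78.3 to 90.3% with a median of 84.2%, and the 6 pairs that differed in both by 77.1 to 90.4% with a median of 83.1%. Days 7 and 14 were the farthest apart in all combinations. Among the 113 minor genes alone the overlap was lower and more even, at 67.5 to 72.1% within a day, 63.8 to 69.7% within a genotype and 64.9 to 69.0% otherwise. Pairs share libraries and the leading genes share reads, so these overlaps are a description.

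Across all genes, no Ighv gene was called between the genotypes. Of the 120 genes, 39 passed the filter on average expression (average log2 CPM of at least 0) and were tested among 11136 genes with edgeR. Over the 3 days, 0 of the 39 were called by the quasi-likelihood test at an adjusted p of 0.05, while 5.23% of all genes were. An unadjusted p under 0.05 was found for 7 of the 39 (17.9%), below the 21% of all genes. DESeq2 called 1 of the 39, Ighv2-3, and 8.67% of all genes. Among these 39 genes, 23 had a higher and 16 a lower fitted level in WT, with a median log2 ratio of WT to Il21r-/- of 0.16, against -0.0039 for all genes. Ighv1-72 had a log2 ratio of -0.18 (SE 0.12, adjusted p = 0.36), Ighv14-3 of -0.033 (SE 0.18, adjusted p = 0.94), Ighv1-62-3 of -0.14 (SE 0.13, adjusted p = 0.52) and Ighv1-53 of -0.21 (SE 0.15, adjusted p = 0.38). For Ighv10-3 it was -0.29 (SE 0.27, adjusted p = 0.58), for Ighv1-22 0.53 (SE 0.40, adjusted p = 0.52) and for Ighv14-2 0.11 (SE 0.33, adjusted p = 0.89). The values of WT and Il21r-/- libraries did not overlap in CPM for 3 of the 39 genes (Ighv1-52 and Ighv1-66 higher in WT, Ighv5-2 higher in Il21r-/-), and for 18.3% of all genes tested. Variation between libraries was larger for Ighv genes, with a median biological coefficient of variation of 25.9% against 12.75% for all genes. These medians were not matched for expression level, and many of the tested Ighv genes were low in counts.

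Each day holds 1 library of either genotype, and a fit with day as a block called 4 of the 39 genes, Ighv5-2 and Ighv1-58 higher in Il21r-/- and Ighv1-59 and Ighv1-67 higher in WT. In that fit 21.1% of all genes were called. Ighv1-58 was at 0.73, 0.44 and 0.66 CPM in WT and at 2.19, 1.94 and 0.72 CPM in Il21r-/-, and Ighv5-2 at 0.95, 1.48 and 1.31 CPM in WT and at 2.58, 1.98 and 2.32 CPM in Il21r-/-. Ighv1-59 stood at 2.06, 0.60 and 2.44 CPM in WT and at 0.74, 0.45 and 1.08 CPM in Il21r-/-, and Ighv1-67 at 3.96, 8.45 and 1.13 CPM in WT and at 1.14, 4.0 and 1.16 CPM in Il21r-/-. None of these 4 is a leading gene, and the genotypes overlapped for all of them except Ighv5-2.

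Taken day by day, the genotypes were compared with 1 library each and the spread of all 6 libraries by likelihood ratio tests. No Ighv gene was called on day 7 (0 of 39), day 10 (0 of 39) or day 14 (0 of 39), while 0.925, 2.57 and 2.75% of all genes were. An unadjusted p under 0.05 was found on day 7 for 8 of the 39 (20.5%) against 5% of all genes, on day 10 for 4 (10.3%) against 9.94%, and on day 14 for 3 (7.69%) against 11.2%. DESeq2 with a linear day term called 0 of the 39 on each day and 0.314, 1.21 and 0.853% of all genes. The difference of the day trends between genotypes was called for 0 of the 39 genes and for 0 of all genes, with 4 of the 39 (10.3%) and 1.25% of all genes at an unadjusted p under 0.05.

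Over days, 2 of the 39 genes changed, both downwards. Relative to all counts, Ighv14-3 stood at 132, 81.3 and 33.4 CPM in WT on days 7, 10 and 14 and at 136, 99.5 and 26.6 CPM in Il21r-/-, a slope of -0.31 log2 per day (SE 0.032, adjusted p = 0.0063, edgeR quasi-likelihood test). The day 14 libraries were below all others. Ighv1-72 stood at 345, 275 and 211 CPM in WT and at 345, 337 and 250 CPM in Il21r-/-, a slope of -0.085 log2 per day (SE 0.021, adjusted p = 0.044). Its libraries of day 14 were the lowest too, though its share of Ighv counts did not fall in Il21r-/-. The share of tested Ighv genes called was 5.13%, against 3.74% of all genes in either direction and 2.83% falling. An unadjusted p under 0.05 was found for 11 of the 39 (28.2%) and for 23% of all genes. Among the 5 markers of non-GC B cells 2 fell with day as well, Klf2 (slope -0.18, adjusted p = 0.012) and Fcer2a (slope -0.15, adjusted p = 0.029), and their part in the Ighv values was not tested. Ighv14-2 had a fitted change of -0.25 log2 per day (SE 0.057, adjusted p = 0.073), Ighv1-22 of 0.35 (SE 0.070, adjusted p = 0.063) and Ighv10-3 of 0.14 (SE 0.047, adjusted p = 0.12). Ighv1-62-3 had -0.051 (SE 0.022, adjusted p = 0.16) and Ighv1-53 -0.041 (SE 0.026, adjusted p = 0.30). Both calls were lost without the WT or the Il21r-/- library of day 7 or without the WT library of day 14, where 0, 0 and 11 of all genes were called, and the call of Ighv1-72 also without the WT library of day 10 or the Il21r-/- library of day 14. DESeq2 called 7 of the 39 genes and 8.52% of all genes.

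**Figure D5:**
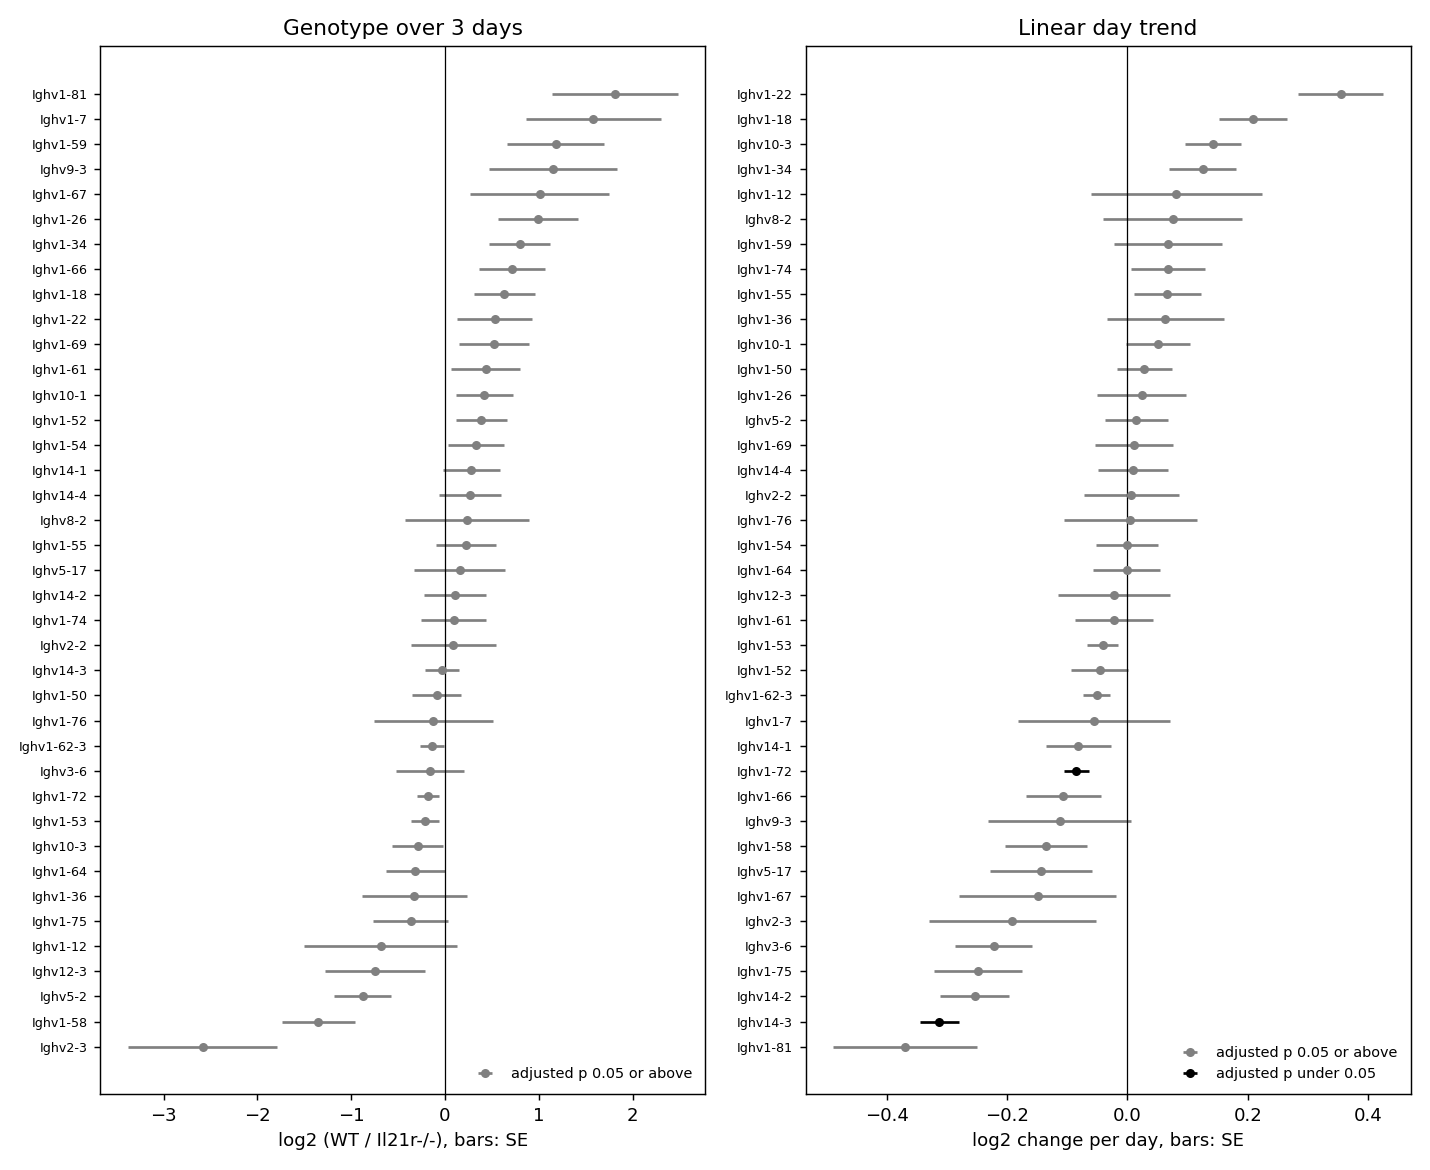
Fitted log2 ratio of WT to Il21r-/- over 3 days (left) and log2 change per day (right) of the 39 tested Ighv genes, with standard errors as bars and genes ordered by value. No gene is called on the left, and Ighv14-3 at -0.31 and Ighv1-72 at -0.085 per day are called on the right (black).

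The segments that join with the V gene were also counted. Of the 4 J segments, Ighj2 took the largest share of Ighj counts in every library, 47.5, 51.4 and 52.5% in WT and 47.3, 50.4 and 57.0% in Il21r-/- on days 7, 10 and 14, from 755 to 1386 counts. It was lowest on day 7 in both genotypes. D segments are too short to collect many reads, and only 56 to 102 counts fell on all of them, of which 18 to 34 were on Ighd1-1, the leading D gene in all libraries. Of the counts on light chain V genes, Iglv1, which forms the lambda1 chain, held 68.6, 65.2 and 67.5% in WT and 73.5, 69.4 and 67.1% in Il21r-/-.

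Among 15 partners of the heavy chain V region, namely constant regions, light chains, the B cell receptor chains Cd79a and Cd79b and the joining chain Jchain, 2 were higher in Il21r-/- and 0 in WT over the 3 days (all 15 tested, median log2 ratio -0.33), while 3.91% of all genes were higher in Il21r-/-. Ighe, the constant region of IgE, stood at 16.3, 12.6 and 18.1 CPM in WT and at 102, 126 and 101 CPM in Il21r-/- (log2 ratio -2.84, SE 0.17, adjusted p = 0.00019). Iglc2, a lambda constant region, stood at 497, 375 and 353 CPM in WT and at 739, 617 and 501 CPM in Il21r-/- (log2 ratio -0.64, SE 0.13, adjusted p = 0.021). Ighg1 did not pass, at -0.13 (SE 0.12, adjusted p = 0.62). With day, 1 of the 15 fell and 0 rose, while 2.83% of all genes fell. The falling gene was Ighm, with a slope of -0.097 log2 per day (SE 0.023, adjusted p = 0.043). These adjusted p-values come from edgeR's quasi-likelihood test.

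Of 14 genes that make or edit the V region, 11 were tested and 2 were higher in WT, as were 1.32% of all genes, with a median log2 ratio of 0.28. The tested genes passed or not by the same edgeR quasi-likelihood test. Msh6, a mismatch repair protein, stood at 181, 234 and 213 CPM in WT and at 133, 165 and 139 CPM in Il21r-/- (log2 ratio 0.48, SE 0.12, adjusted p = 0.042). Exo1, an exonuclease of the same repair pathway, stood at 29.7, 37.6 and 38.3 CPM in WT and at 22.2, 27.2 and 24.6 CPM in Il21r-/- (log2 ratio 0.47, SE 0.13, adjusted p = 0.049). None of the 11 was called with day. The recombinase genes Rag1 and Rag2 and the polymerase Dntt, which act when the V region is first joined, stayed at or under 0.281 CPM in all libraries.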

How the data were processed

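RNA-seq counts from 6 libraries were analysed, 1 per genotype and day. Single-end reads of 100 bases were mapped by the authors to mm10 (Rsubread) and summarized per gene by featureCounts with the RefSeq annotation built into it. Technical replicates were pooled, and raw counts were deposited. Libraries had been made with a TruSeq kit that does not mark strand (CASAVA 1.8.2 per the labels), and strand and multi-mapping settings are not given in the sources used here. The authors left Ig variable genes out of their own tests, whereas here they were kept. Gene symbols came from RefSeq (GRCm38.p6) for 25275 identifiers and from GENCODE M21 for 18, and 1886 without a symbol held 1.57 to 2.24% of counts. The table of all libraries and the single-library tables were identical.

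Library totals were 21353438 to 27435124 counts. Genes with an average log2 CPM under 0, Y-chromosome genes and Xist were left out of tests, and TMM factors were used. edgeR 4.0.16 (R 4.3.3) fitted genotype plus a linear day effect, tested with the quasi-likelihood test. Day-wise genotype effects used likelihood ratio tests with the dispersions of that fit and a mean per day. Standard errors came from a negative binomial fit of genotype and linear day, not from the quasi-likelihood fit that gave the p-values. P-values were adjusted by the Benjamini-Hochberg method over 11136 genes, with a threshold of 0.05. CPM values of Ighv genes and Il21r used TMM-scaled library sizes, those of other genes raw totals. Shares and the effective number were compared by exact permutation tests, which do not use the pairing by day. The day pairs the libraries, whose deviations from genotype means correlated across 11136 genes (log2 CPM plus 0.5) at r = 0.62, 0.40 and 0.61 on days 7, 10 and 14. The procedure was tested on simulated counts. These had the same dispersion for all genes and no deviations shared within a day other than planted day trends. They therefore did not mimic the larger spread of the Ighv genes. Alternatives used DESeq2 1.42.0, other filters, other scales and left-out libraries.

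The members and lists were chosen with earlier results of these data known. Genes named singly were Ighv1-72 and Ighv1-53, the 12 Ighv genes of highest mean share, those with at least 5% in any library, those called by a test, Il21r and list members. Other names were chosen after their values were seen. Hbb-bt, 1 of the 5 erythroid markers, was not matched. Some members of the marker and gene lists are not reported here and were left out of their counts and sums.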

Additional observations from a re-analysis of the deposited data

How the results depend on the processing

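The count of Ighv genes called between genotypes over 3 days was 0 and became 4 with day as a block (2353 of all genes called), 2 without a filter on low counts (891 of all genes) and 1 with DESeq2 (965), and 0 to 3 with a library left out (3 without WT or Il21r-/- of day 10, where 318 and 1891 of all genes were called, and 2 without Il21r-/- of day 14, 243 of all genes). On single days it was 0, and it became 1 on day 10 among genes with at least 10 counts in every library (248 of all genes). With a library left out it ran from 0 to 1 on day 7 (88 to 148 of all genes). It likewise ran from 0 to 2 on day 10 (234 to 331 of all genes) and 0 to 1 on day 14 (303 to 514 of all genes). The count of day trends, 2, became 7 without a filter (728 of all genes), 7 with DESeq2 (949) and 7 for day 14 against day 7 with day as a factor (2682, an alternative chosen after seeing the data), and 0 to 7 with a library left out, where 0 were called without either day 7 library or WT of day 14, 4 without WT of day 10 (390 of all genes) and 7 without Il21r-/- of day 10 (2010). The fit of all days had 582 genes called for genotype and 416 for the trend. The lone library of such a day was assumed to vary like the others. DESeq2's size factors moved no count. DESeq2 on the day-wise means was not run because that design leaves no residual degrees of freedom, and a linear day term was used instead.

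Of 154 alternative log2 values of the 7 leading genes, 149 kept their direction. With a library left out, the genotype ratio of Ighv14-3 ran from -0.24 to 0.18 (reversed without WT of day 7, 0.085, and without Il21r-/- of day 10), that of Ighv10-3 from -0.71 to 0.047 (reversed without WT of day 7) and that of Ighv14-2 from -0.34 to 0.45 (reversed without WT of day 10 and, at -0.099, without Il21r-/- of day 14). None of these was called. The day trend of Ighv14-3 stayed between -0.34 and -0.26 log2 per day and was called under 8 of 11 alternatives, that of Ighv1-72 between -0.10 and -0.073 and called under 6 of 11.

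The difference in Ighv1-72 share (WT minus Il21r-/-) stayed negative under all 12 alternatives, -3.995 to -1.82 points with a library left out, and the difference in effective number stayed positive under all 11, 0.20 to 0.65 with a library left out. That in the Ighv share of all counts ran from -0.0096 to 0.0040 points with a library left out, and turned to 0.42 as Ighv counts per 100 Ighg1 counts. With 3 libraries per genotype no permutation test could pass 0.05, so these say nothing about stability. No paired analysis by replicate number was possible because the labels give none. In the leading genes depth allowed shares to within about 1 point, while genes under 20 counts per library are limited by counting error. The causes of these shifts were not tested.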
